A study of Sus scrofa with 20 samples.

Results

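The 200 sequence tags described here were present in both libraries of longissimus muscle at 35 days post coitus (dpc) and rarer or missing at every later stage. They were chosen by their measured levels. The copies of each tag were divided by the total of its library and multiplied by 1000000 (tags per 1000000, TPM), with 0 for a tag that a library did not list. For each tag the lower of the 2 levels at 35 dpc plus 1 was divided by the highest level in 16 libraries of later stages plus 1, and the 200 tags with the highest ratio were taken, with ties in alphabetical order. The 20 libraries held 801159 distinct tags, of which 775218 were found in the 18 libraries that entered the ratio. The libraries of Landrace muscle at 120 and 180 days post natum (dpn) were left out of the ratio. Because the levels themselves chose the tags, the levels are a description and were not tested.

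Landrace (LR) and Lantang (LT) pigs, a lean and a fatter breed, were sampled at 35, 49, 63, 77 and 91 dpc and at 2, 28, 90, 120 and 180 dpn. There was no other treatment than castration of the boars, which the paper puts after 2 weeks. The males at 2 dpn were thus intact and those from 28 dpn on castrated, a difference that cannot be told apart from age. Each of the 20 libraries was made from equal amounts of RNA of 3 males, and each breed and stage gave 1 library. There was therefore no replicate of any breed and stage, and a difference between libraries cannot be told apart from a difference between pools, dissections or sequencing runs. Library totals ran from 2157111 to 5322022 clean tags. The LR library of 35 dpc held 4233958 tags and the LT library of 35 dpc 2955595. Tags with 1 copy had been removed, so a listed tag had at least 2 copies. A level of 3 copies, used here as the lowest detectable amount, stood for 0.564 to 1.39 TPM. In bulk tissue, fewer cells of a type and less RNA per cell cannot be told apart. Marker genes of muscle were not analysed here, so the tissue label was not checked.

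A tag marks a transcript by a short stretch next to a restriction site. NlaIII cuts cDNA at CATG, the fragment nearest to the poly(A) tail stays on the bead, and the bases after the site are read. Each tag had 21 bases, CATG and 17 more. In the early embryo the longissimus forms from the myotome of the somites, whose myoblasts fuse into primary myofibers. Secondary fibers form later along the primary ones, and after birth the fibers mainly grow in size. At the youngest stage here progenitors, young fibers and connective tissue are still being laid down. The tags were not matched to genes here, and they are called Tag 1 to Tag 200 by the rank of their ratio.

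The 10 tags with the highest ratio are shown because they define the pattern most clearly, with every CATG in capitals.
Tag 1: CATGttaactttattacaatt
Tag 2: CATGaccCATGtattcccatt
Tag 3: CATGttatggaattgatttgc
Tag 4: CATGgagtgaaaaggtgaggc
Tag 5: CATGagggatcagatggatat
Tag 6: CATGcaggaggggacaagtgg
Tag 7: CATGtccctatgattagtggg
Tag 8: CATGggcagagcgatggtggc
Tag 9: CATGcagtacttttgttgtgt
Tag 10: CATGcacagtttgcaactttt

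A second set is shown because the comparisons of breeds and later stages turn on it. Tags 43, 38 and 112 were among the most abundant members, Tags 128, 60, 144, 105 and 46 differed most between the breeds, Tags 24, 38, 43, 76 and 112 were highest at 49 dpc, Tags 16, 76 and 91 after birth, and Tags 72, 174 and 175 in the 2 LR libraries outside the ratio.
Tag 16: CATGagaacttcaggaaaaaa
Tag 24: CATGatgctactgaatatttt
Tag 38: CATGgtttaaaaagaactcat
Tag 43: CATGggaccgcatctgacaac
Tag 46: CATGgtgtgatgtcacttcac
Tag 60: CATGaagctcgaacaggtgat
Tag 72: CATGaccaataatgaaacatt
Tag 76: CATGacgagttaatgCATGtc
Tag 91: CATGcagtagccaataatcag
Tag 105: CATGatactttcaaaatgtgt
Tag 112: CATGtcaagtttcactgtttt
Tag 128: CATGttctgtataaaagttat
Tag 144: CATGaggaggaaaggaagaag
Tag 174: CATGtgcagaccaacaggttt
Tag 175: CATGatcaaatgtattaaact

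The ratio ran from 46.3 at rank 1 through 34.3 at rank 2, 13.1 at rank 10, 7.61 at rank 50 and 5.96 at rank 100 to 4.38 at rank 200. Of the 200 tags, 155 had a ratio of at least 5, and these were 0.02% of the tags in the 18 libraries. The members just inside the limit were Tag 198 (CATGtgtactatgtcagaaaa), Tag 199 (CATGaggcacctcagaatcag) and Tag 200 (CATGagggcatctgctgtata), with lower 35 dpc levels of 7.79, 8.98 and 3.38 TPM. The 3 tags just outside were CATGgtgcttctgctcatcac, CATGtgttctatccaaaCATG and CATGcttttcctgcCATGtat, with lower levels of 3.38, 3.38 and 14.2 TPM. Tag 200 and the first 2 of these tags had exactly the same ratio, 10 copies in LT and no copy in the 16 libraries, and only the alphabet separated them.

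Tag 1 had the highest ratio and the highest level of any member in LT. It reached 63.3 TPM (95% Wilson interval 56.2 to 71.3) in LR and 487 TPM (462 to 512) in LT at 35 dpc, where it was the 139th most abundant tag of the LT library. Among the other 18 libraries it was listed only in LT at 28 dpn, at 0.390 TPM. Tag 2 had 33.3 TPM (28.2 to 39.3) in LR and 35.2 TPM (29.0 to 42.6) in LT, and was listed in no other library. In LT a tag 1 base apart from it had 101 copies beside the 104 of Tag 2, and in LR that tag was not listed, so that both together came to 33.3 TPM in LR and 69.4 TPM in LT. Against the least sensitive of the 16 libraries, its lower level was at least 23.9-fold higher. These and all later intervals cover counting error only, because each breed and stage had a single library. PCR copies cannot be told from separate molecules, so the intervals may be too narrow even for that error.

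Tag 3 was present at 102 TPM in LR and 211 TPM in LT at 35 dpc and, unlike the first 2, kept a trace through development. In LR it had 1.34, 0.637, 1.35 and 2.85 TPM at 49, 63, 77 and 91 dpc and 1.28 and 0.688 TPM at 2 and 28 dpn. In LT it had 2.36, 2.29, 1.71 and 1.88 TPM at the 4 later fetal stages, 0.906 and 1.17 TPM at 2 and 28 dpn, and 0.682 TPM at 180 dpn. Every later level was below 3% of the lower level at 35 dpc. Tag 4 was higher in LR, with 101 TPM (91.7 to 111) against 54.1 TPM (46.4 to 63.2) in LT. It was listed elsewhere only in LR at 63 dpc, at 0.425 TPM, and in LT at 49 dpc, at 1.18 TPM.

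Tags 6 and 9 were listed at 35 dpc only. Tag 6 had 18.9 TPM in LR and 40.9 TPM in LT, at least 13.6-fold above the highest floor, and Tag 9 had 12.3 and 42.3 TPM, at least 8.83-fold above it. Tags 5 and 7 had 33.8 and 25.5 TPM in LR and 72.4 and 97.4 TPM in LT, and Tag 8 had 106 copies in LR and 245 copies (82.9 TPM) in the smaller LT library. All 5 of these tags were higher in LT, with intervals that did not overlap. Tag 10 had 40.2 TPM in LR and 362 TPM in LT, and 0.541 to 2.14 TPM in the 4 later fetal LR libraries. In LT it was listed at 49 dpc, at 1.18 TPM, and at 91 dpc, at 0.376 TPM.

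**Figure D1:**
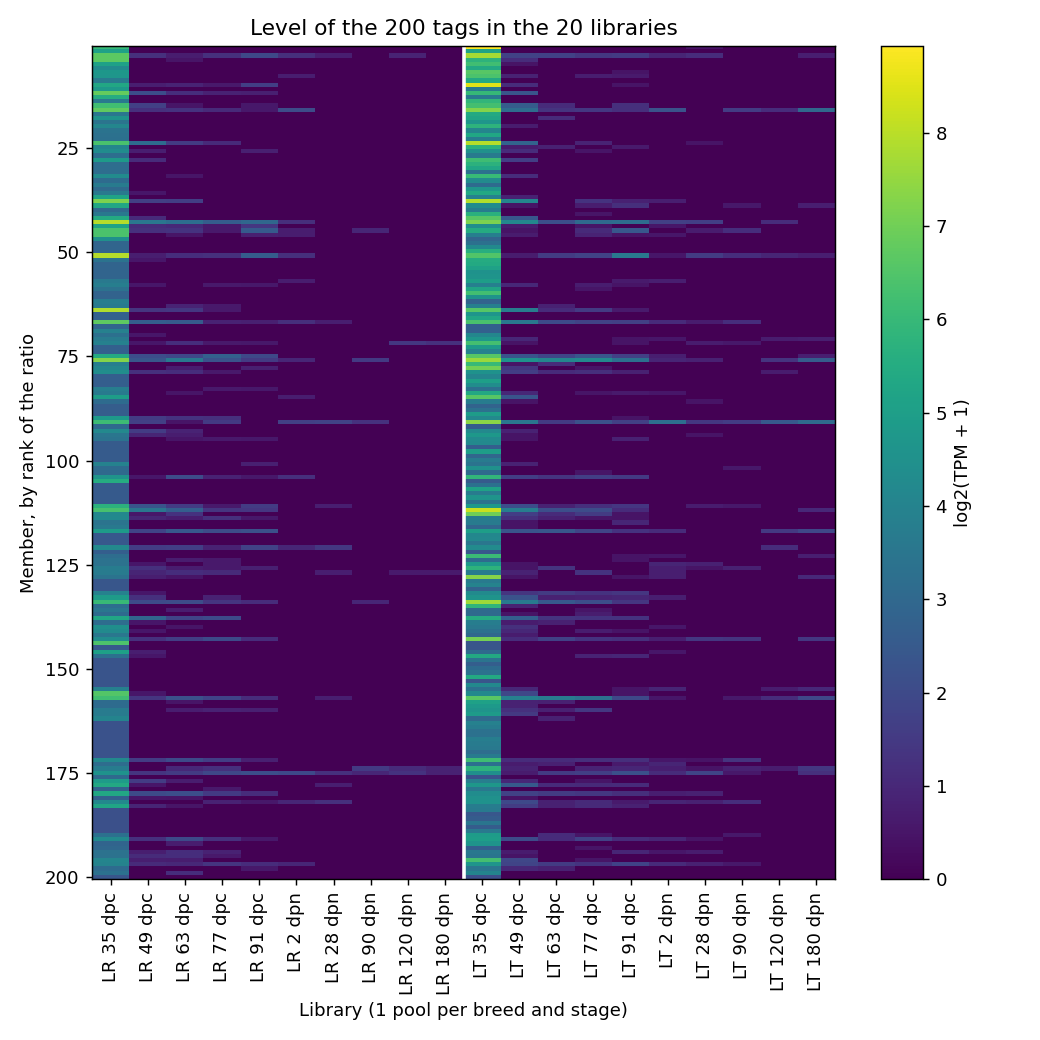
Levels of the 200 members (rows, in the order of the ratio) in the 20 libraries (columns, LR left and LT right) as log2(TPM + 1), from 0 (dark) upward (bright). All members are above 0 in both 35 dpc columns, with medians of 9.80 TPM (LR) and 19.6 TPM (LT). The median of every later column is 0, and rows with colour there, such as Tag 76 and Tag 91, stay below their own 35 dpc levels.

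At 35 dpc the members had a median level of 9.80 TPM in LR (lowest 3.54, highest 246) and 19.6 TPM in LT (lowest 3.38, highest 487). The tags with the highest mean of the 2 libraries were Tags 1, 10, 43, 38 and 112. Tag 43 had 242 TPM in LR and 144 TPM in LT, Tag 38 had 143 and 236 TPM, and Tag 112 had 79.8 and 298 TPM. Together the 200 members made up 0.469% of all tags in LR (4686 TPM) and 0.815% in LT (8155 TPM). No single tag carried this sum, since the 5 most abundant members held 21.8% of it in LR and 20.0% in LT.

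At all other stages, and in both breeds, the median level of the members was 0. In LR the summed level was 117 TPM at 49 dpc, 107 TPM at 63 dpc, 66.3 TPM at 77 dpc and 58.4 TPM at 91 dpc. After birth it was 21.8, 11.0 and 7.88 TPM at 2, 28 and 90 dpn. The LT libraries held 257, 92.5, 103 and 88.1 TPM at the same fetal stages, and 37.4, 21.3, 17.7, 16.1 and 37.2 TPM from 2 to 180 dpn. The sum at 49 dpc was thus 2.50% of that at 35 dpc in LR and 3.15% in LT, and at 2 dpn it was 0.466% and 0.458%. Most of the drop lay in the first interval sampled, and that is what the rule selected for.

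**Figure D2:**
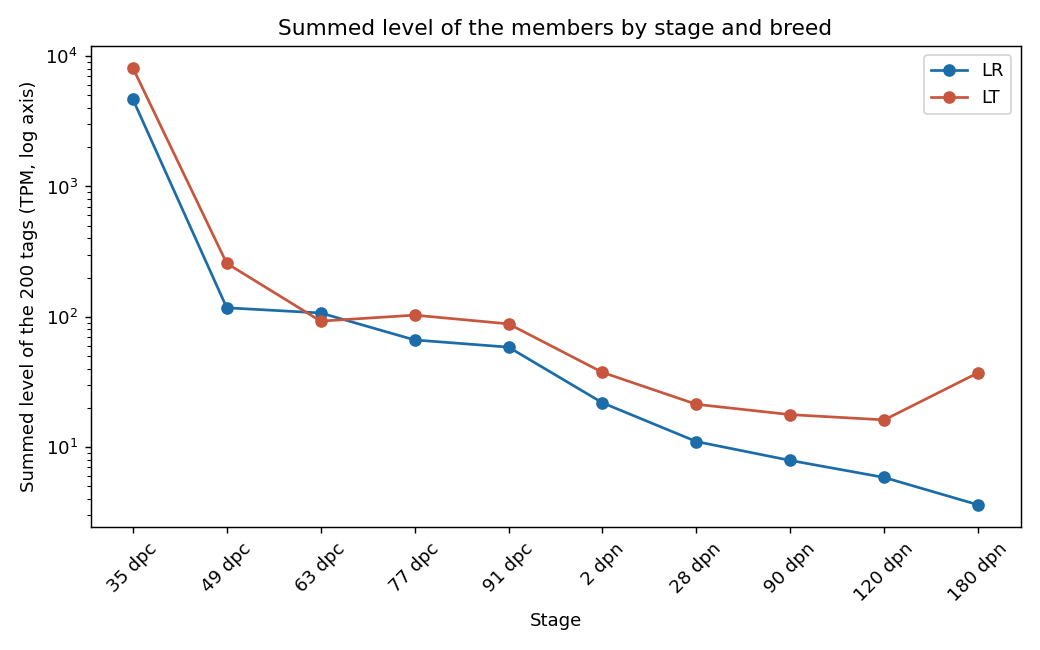
Summed level of the 200 members in TPM (log axis) by stage, with 1 point per library and LR and LT as separate lines. The sums were 4686 (LR) and 8155 TPM (LT) at 35 dpc and at most 257 TPM in any later library, and LT was above LR at every stage but 63 dpc.

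In each single later library the remaining copies came from a minority of the members, although 113 members had a copy in some of the 16 libraries. At 49 dpc 47 members (23.5%) had at least 3 copies in LR and 71 (35.5%) in LT. For comparison, 32322 tags reached at least 3.38 TPM, the lowest member level, in both libraries of 35 dpc, and they serve as reference tags below. Of these, 93.1% had at least 3 copies in LR at 49 dpc and 98.6% in LT. Absence at 49 dpc was what chose the members, so nothing is read from this gap. In LR the number of members with at least 3 copies was 49, 31 and 27 at 63, 77 and 91 dpc and 12, 4 and 3 at 2, 28 and 90 dpn. The reference shares in these libraries were 95.8%, 91.9%, 92.9%, 85.7%, 75.9% and 66.1%. The LT numbers were 30, 42 and 42 at the fetal stages and 24, 16, 10, 8 and 11 from 2 to 180 dpn. Their reference shares were 94.9%, 97.6%, 97.4%, 88.6%, 80.7%, 80.1%, 74.7% and 77.4%. The reference tags were thus also detected less often after birth, and less often in LR than in LT at each shared stage but 63 dpc.

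**Figure D3:**
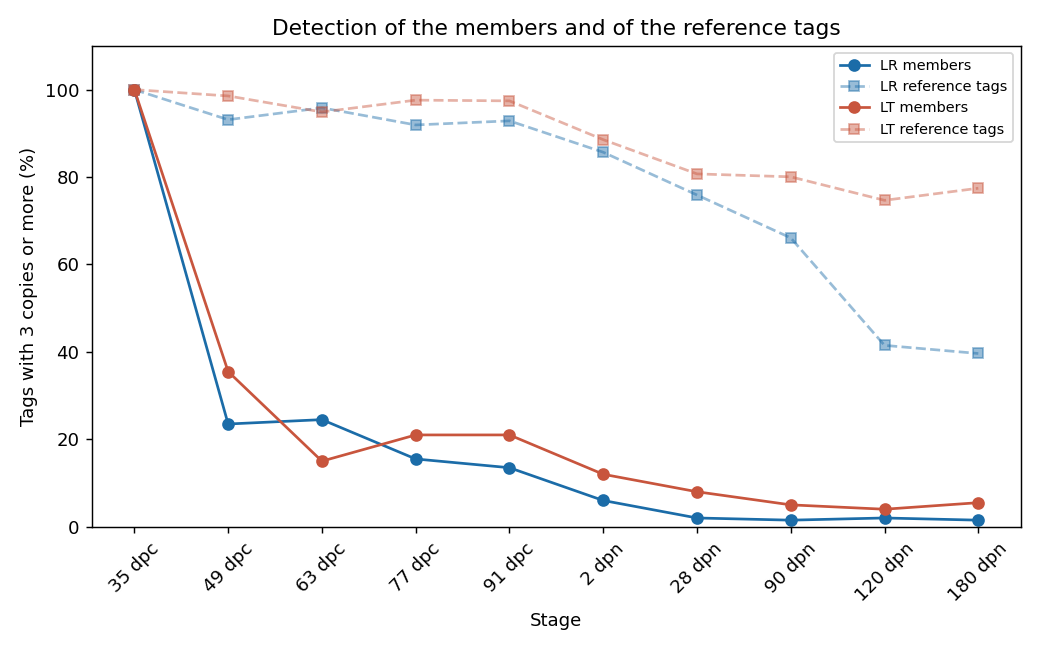
Share of the 200 members (solid lines) and of the 32322 reference tags (dashed lines) with at least 3 copies in each library, by stage and breed. Members were at 23.5% (LR) and 35.5% (LT) by 49 dpc, while reference tags were at 93.1% and 98.6%.

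The members fell into classes by where their residual copies lay. For 87 members no copy was listed in any of the 16 libraries, nor in the 2 LR libraries left out of the ratio. Of the reference tags 89 (0.275%) had no copy in the 16 libraries. They include the 87 members, so this share is no independent comparison, and the rule again sets it. The median levels of these 87 were 5.43 TPM in LR and 12.2 TPM in LT at 35 dpc. Another 60 had copies between 49 and 91 dpc and none after birth in the libraries of the rule, with medians of 13.2 and 21.7 TPM at 35 dpc. The 51 members with copies both before and after birth had medians of 23.4 and 31.5 TPM. Tag 1 and Tag 102 had copies after birth but not between 49 and 91 dpc, Tag 102 with 0.506 TPM in LT at 90 dpn. The order of these medians is set by the rule, which admits a tag with later copies only at a higher level at 35 dpc. The lowest member levels in LT at 35 dpc were 3.38, 5.41 and 7.44 TPM in these 3 classes.

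Of the 113 members with a copy in the 16 libraries, 60 had their highest later level at 49 dpc, 48 of them in LT and 12 in LR. In 9 the highest later level lay after birth. No member was listed in all 16 libraries, and 27 were listed in at least 8. Tags 91 and 175 were listed in 15 of the 16. The highest later level of any member, as a percentage of its lower level at 35 dpc, was 19.2% (Tag 157), and the highest in absolute terms was 22.4 TPM (Tag 76 in LT at 49 dpc).

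The members with the highest levels at 49 dpc were Tags 43, 112 and 24 in LR and Tags 76, 43 and 38 in LT. Tag 43 had 10.8, 8.29, 5.14 and 6.89 TPM at 49, 63, 77 and 91 dpc in LR and 17.1, 3.44, 7.48 and 7.89 TPM in LT. Tag 112 had 10.3, 5.52, 1.62 and 1.66 TPM in LR and 13.2, 3.44, 3.21 and 1.13 TPM in LT at these stages. These 2 tags were still listed at every fetal stage in both breeds. Tag 24 had 7.61 TPM in LR and 6.10 TPM in LT at 49 dpc and was unlisted at 91 dpc in both breeds. Tag 38 had 2.24 TPM in LR and 15.9 TPM in LT at 49 dpc.

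Tag 76, at 154 TPM in LR and 192 TPM in LT at 35 dpc, kept more in LT than in LR at every later fetal stage. The LT levels were 22.4, 16.1, 17.3 and 8.83 TPM from 49 to 91 dpc, and the LR levels 4.26, 11.3, 3.79 and 1.90 TPM. Its highest levels after birth were 5.11 TPM in LT, at 180 dpn, and 1.85 TPM in LR, at 90 dpn. Tag 91 had 69.0 TPM in LR and 167 TPM in LT at 35 dpc, and 8.61 TPM in LT at 2 dpn, which was the highest postnatal level of a member. In LT it had 1.76, 2.02, 4.57 and 7.50 TPM at 28, 90, 120 and 180 dpn, and in LR 2.25, 2.41 and 1.39 TPM at 2, 28 and 90 dpn. Tag 16, which ends in a run of A, had 106 TPM in LR and 154 TPM in LT at 35 dpc. It was at 8.07 TPM in LT at 49 dpc and at 7.16 TPM in LT at 180 dpn, above its levels in the LT libraries from 63 dpc to 120 dpn. In the LT library of 180 dpn, Tags 91, 16 and 76 were thus again above several earlier stages, and the 5 highest members made up 67.9% of the members' sum there.

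The levels in the 2 libraries that the rule did not use did not enter the choice of members directly. The rule kept tags that were rare or missing in the earlier postnatal LR libraries and in the LT libraries of the same ages. It thus also favoured low levels in this pair. The reference tags other than the members were not chosen in this way, so nothing is read from the gap between reference tags and members. In LR at 120 dpn 5 members were listed and 4 (2.0%) had at least 3 copies, against 41.5% of the reference tags. In LR at 180 dpn 4 members were listed and 3 (1.5%) had at least 3 copies, against 39.6% of the reference tags. Reference tags were rarer in this pair of libraries than in any other, where 66.1% or more of them had at least 3 copies. Tag 72, with 14.2 TPM in LR and 75.1 TPM in LT at 35 dpc, was the highest member in both, at 1.75 TPM (6 copies) and 1.38 TPM (5 copies). Tag 175 had 1.46 and 0.829 TPM and Tag 174 had 1.17 and 0.829 TPM, and Tags 3 and 127 were the other members listed. Tag 175 differed little between the breeds at 35 dpc, at 22.2 TPM in LR and 20.6 TPM in LT, and lay between 0.506 and 3.57 TPM wherever it was listed later. Adding both libraries to the ratio left all 200 members in place.

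The breeds differed at 35 dpc in the level of the members, a comparison that entered the rule only through the lower level of each pair. Of the 200 members, 152 were higher in LT and 48 in LR. At least 2-fold higher on the scale of TPM + 1 were 98 members in LT (49.0%), against 6.92% of the reference tags, and 16 in LR (8.0%), against 6.39%. On the log2 scale the median difference, LT over LR, was 0.92 (quartiles 0.02 and 1.69), a 1.89-fold difference, and the median over the reference tags was 0.0039. With 1 pool per breed the comparison is of these 2 libraries and has no replicate check.

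The lean to LT ran through the ranks. In LT 26 of the first 50 members were at least 2-fold higher, as were 28 of the next 50 and 44 of the last 100. Below the limit the share was 30.0% at ranks 201 to 400 and 25.5% at ranks 401 to 1000, while 6.5% and 4.83% were at least 2-fold higher in LR. Among the 87 members without later copies, 52 were at least 2-fold higher in LT and 6 in LR. Of the 60 with copies between 49 and 91 dpc only, 23 and 5 were, and of the 51 with copies before and after birth 21 and 5.

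The direction depended on which library chose the tags. When LR at 35 dpc alone was set against the 16 libraries, 105 of its 200 highest tags were members, and 46 were at least 2-fold higher in LT and 104 in LR. When LT at 35 dpc alone was used, 95 were members, 191 were at least 2-fold higher in LT and none in LR. The rule set both 35 dpc libraries against 7 LR and 9 LT libraries, and the part of this imbalance or of the smaller LT library of 35 dpc in the difference was not tested. With at least 50 copies required in each library, 59 of 200 tags were at least 2-fold higher in LT and 12 in LR. Their median log2 difference, LT over LR, was 0.377, against 0.92 over the members. The shares over the 8131 tags that met this minimum are not given here.

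**Figure D4:**
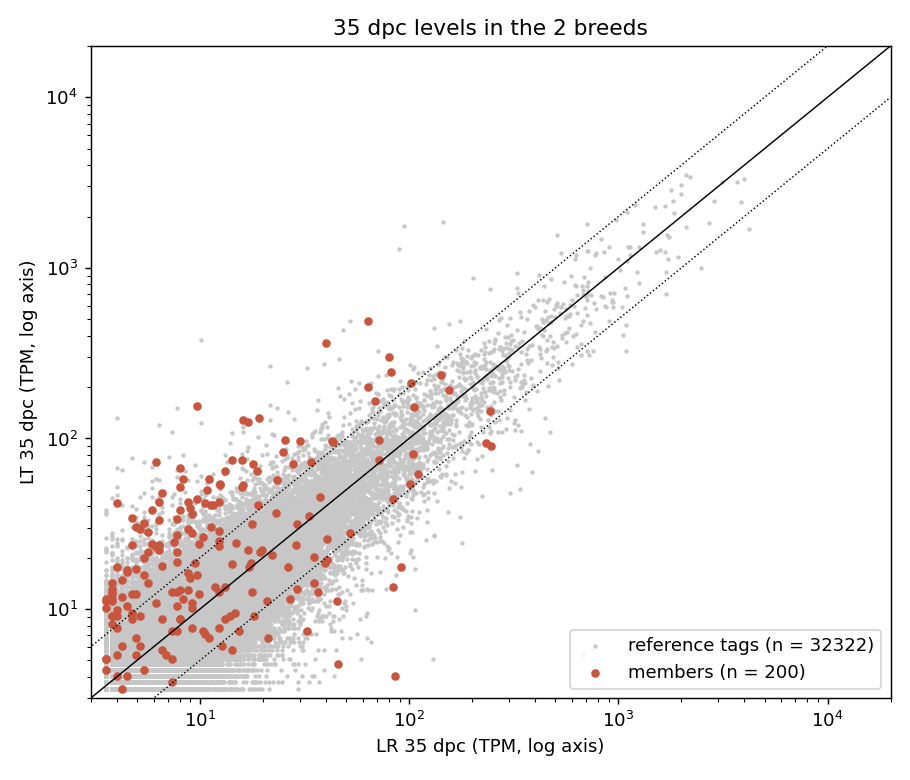
Level at 35 dpc in LR (x axis) and LT (y axis), both in TPM on log axes, for the 200 members (red) and the 32322 reference tags (grey); the solid line marks equal levels and the dotted lines 2-fold differences in TPM. Members lie mostly above the line of equal levels (152 of 200 higher in LT), while the reference cloud is centred on it.

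The largest differences in favour of LT were those of Tags 128, 60 and 10. Tag 128 had 9.68 TPM (7.14 to 13.1) in LR and 156 TPM (142 to 171) in LT, 14.7-fold on the scale of TPM + 1. Tag 60 had 6.14 TPM (26 copies) in LR and 73.1 TPM (64.0 to 83.5) in LT, 10.4-fold, and Tag 10 was 8.81-fold higher in LT. Tag 60 was listed at no later stage, whereas Tag 128 was listed at 0.376 to 1.02 TPM in 4 later LT libraries and at 0.425 and 0.672 TPM in 2 LR libraries. The largest differences in favour of LR were those of Tags 144, 105 and 46. Tag 144 had 85.3 TPM (76.9 to 94.5) in LR and 4.06 TPM (2.32 to 7.10) in LT, 17.0-fold. Tag 105 had 45.6 TPM (39.6 to 52.5) in LR and 4.74 TPM (2.82 to 7.95) in LT, 8.12-fold, and neither tag was listed later. Tag 46 had 83.4 TPM in LR and 13.5 TPM in LT, 5.81-fold, and at most 0.855 TPM later. At least 4-fold higher were 32 members in LT and 4 in LR, and no share of the reference tags is given at this limit.

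At later stages the sum of the members was also higher in LT than in LR at every stage but 63 dpc, where LR had 107 TPM and LT 92.5 TPM. At 49 dpc the sum in LT was 2.19 times that in LR, 66 members were higher in LT and 28 in LR, and 106 were listed in neither. The reference tags were also higher in LT at 49 dpc, with a median of 7.87 TPM against 5.60 TPM in LR, and 61.5% of them were higher in LT and 38.1% in LR, while their sum in LT was 0.961 times that in LR. At least 3 copies were reached in both breeds by 39 members, in LT only by 32 and in LR only by 8. The same split was not made for the reference tags, so nothing is read from it. Taken singly, 93.1% of the reference tags had at least 3 copies in LR at 49 dpc and 98.6% in LT. The LT library of 49 dpc was the deeper one, with 5080215 tags against 4465001. At 63 dpc, the exception, LR was the deeper one, with 4706547 tags against 2615631. From 77 dpc to 90 dpn LT was the deeper one at every stage. At 120 and 180 dpn LR was deeper, with 3430462 and 3617816 tags against 3282841 and 2932964, and the sum was still higher in LT. The part of library depth in these differences was not tested. The 98 members higher in LT at 35 dpc summed to 41.4 TPM in LR and 82.3 TPM in LT at 49 dpc, the 86 within 2-fold to 66.3 and 151 TPM, and the 16 higher in LR to 9.41 and 23.2 TPM.

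No other stage had a comparable set of tags. When the same ratio was computed for each stage with 2 libraries in the rule, 155 tags at 35 dpc reached 5, and at 2 and at 28 dpn 1 tag each did (0.000129%). At 49, 63, 77, 91 dpc and 90 dpn 0 tags did (0%). The highest ratio was 46.3 at 35 dpc and between 2.35 and 6.50 at the other stages, and the ratio at rank 200 was 4.38 at 35 dpc and between 1.42 and 1.83 elsewhere. A ratio of at least 3 was reached by 486 tags at 35 dpc, 16 at 2 dpn, 4 at 28 dpn, and 1 each at 63 dpc and 90 dpn. The 35 dpc stage was the first of the series, with no earlier stage to be compared with, and 120 and 180 dpn were not scored because the LR libraries were left out. With 0.1 in place of 1 added to both levels, between 144 and 609 tags reached 5 at the other stages and 3396 at 35 dpc.

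**Figure D5:**
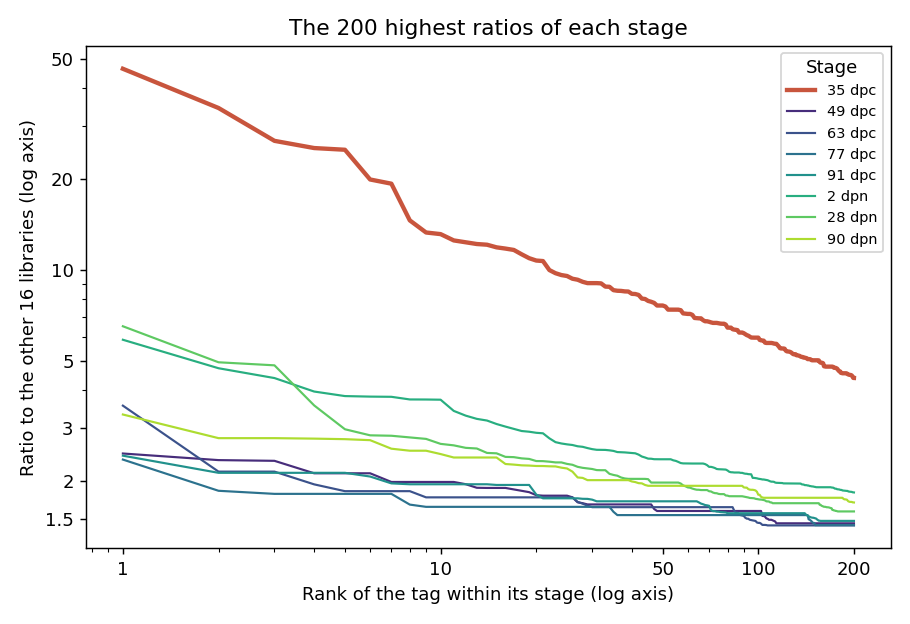
The 200 highest ratios of each stage (y axis, log) by rank (x axis, log), each being the lower of the 2 breed levels plus 1 over the highest level in the other 16 libraries plus 1. The curve of 35 dpc runs from 46.3 to 4.38 and lies above those of all other stages, which start between 2.35 and 6.50.

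The sequences of the members had features the rule did not use. The G+C content of the 17 bases after CATG was 43.4% ± 16.6 (SD, n = 200 tags), against 42.5% ± 15.6 in the reference tags. Among the 98 members higher in LT it was 41.2% ± 16.5, and among the 16 higher in LR 51.5% ± 13.8. A CG dinucleotide was found in 24.5% of the members and 22.5% of the reference tags. A run of at least 6 A was found in 3 members (1.5%) and 1.09% of the reference tags. The first base after CATG was A in 29.0% of the members and 21.6% of the reference tags, and G in 18% and 24.0%.

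The hexamer AATAAA, the usual polyadenylation signal, or its common variant ATTAAA was found in 10 members (5.0%) and in 2.52% of the reference tags, searched on the strand of the tag only, with a tag that held both counted once. Such a hexamer lies a short way upstream of the site where the transcript is cleaved and the poly(A) tail is added. Of the 10 tags, 7 were among the 98 higher in LT, which were 49.0% of all members. None was among the 16 higher in LR, which were 8.0%. With 10 tags nothing is read from these counts. The tags are shown because they hold a feature that the rule did not use, here with the hexamer in capitals.
Tag 29: catgccagaaAATAAAagttc
Tag 61: catgtaatATTAAAttcctcc
Tag 66: catgttgAATAAAtttgtgag
Tag 81: catgAATAAAttgctgctttt
Tag 106: catgaaAATAAAaacaagtcg
Tag 118: catgagatATTAAAagtcatt
Tag 141: catgccttttagcAATAAAtc
Tag 143: catgataAATAAAtgaatatt
Tag 172: catgttgatcaaacAATAAAc
Tag 175: catgatcaaatgtATTAAAct

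Of these, Tag 143 had the highest level, with 19.1 TPM in LR and 132 TPM in LT at 35 dpc, and kept 1.18 to 2.98 TPM in all 8 libraries from 49 to 91 dpc. Tag 29 had 8.03 TPM in LR and 52.1 TPM in LT and was listed in no other library. Tag 172 had 71.1 TPM in LT. Tags 141 and 175 were the exceptions in direction, with 18.2 and 22.2 TPM in LR against 9.14 and 20.6 TPM in LT.

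A further CATG inside the tag was found in 6 members (3.0%) and 3.60% of the reference tags. Such a tag can overlap a second tag that starts at the inner site, and a pair of this kind need not stand for 2 transcripts. This was the case for 2 pairs of members, counting overlaps of at least 12 bases. The last 14 bases of Tag 2, CATGtattcccatt, were the first 14 bases of Tag 23, CATGtattcccatttcctgtc, and no other listed tag began with them. Tag 23 had 8.74 TPM in LR and 12.9 TPM in LT at 35 dpc and, like Tag 2, no copy elsewhere. The last 15 bases of Tag 176, CATGtcCATGtgacacagcaa, were the first 15 of Tag 177, CATGtgacacagcaagtcctc, and of 3 other tags with at most 3 copies in any library. Tag 176 had 7.32 TPM in LR and 3.72 TPM in LT, and Tag 177 had 29.1 and 13.2 TPM. The inner tag was lower in the first pair, with 0.262 (LR) and 0.365 (LT) of the level of Tag 2, and higher in the second, 3.97 and 3.55 times Tag 176. Tags 176 and 177 were both higher in LR, while Tags 2 and 23 were 1.05-fold and 1.42-fold higher in LT on the scale of TPM + 1.

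Sequencing errors or alleles of an abundant tag would appear as tags 1 base apart. No 2 members were 1 base apart, and the closest pairs, 6 in number, differed at 5 bases. Of the 200 members, 77 had a listed neighbour 1 base apart in some library, and these neighbours made up 2.05% of the summed copies of members and neighbours in LR at 35 dpc and 2.04% in LT. At no later stage did a neighbour reach the lower 35 dpc level of its member, and the highest came to 0.703 times that level (Tag 132). In 3 members a neighbour had more copies than the member itself in one library of 35 dpc. Tag 90 had 112 copies in LR and 52 in LT, where its neighbour had 72. Tag 101 had 62 copies in LR, where its neighbour had 106, and 28 in LT, where neither of its neighbours was listed. Tag 131 had 18 copies in each library, and its neighbour had 25 in LT. Including these and Tag 2, 8 members had neighbours with at least 25% of the joint copies in a library of 35 dpc. With all neighbours added to their members, 100 members were at least 2-fold higher in LT and 20 in LR. Neighbours were not added to the reference tags, so these counts have no reference share beside them and nothing is read from them. When tags 1 base apart were merged before the ratio was taken, 191 of the 200 tags remained members.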

How the data were processed

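RNA of longissimus muscle was pooled from 3 animals for each breed and stage, and the 20 NlaIII tag libraries were sequenced on an Illumina Genome Analyzer. The authors filtered out adaptors, reads without an insert, poor-quality tags and tags of 1 copy, and deposited the raw count of each distinct clean tag, beside a rounded TPM that was not used. The submitters' processing notes name Bowtie 0.12.3, without giving its role. TPM was recomputed from the counts. Each tag outside a file was given 0, which includes tags of 1 copy.

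Groups were taken from the sample titles. With 1 library per group and with members chosen on the levels, no test was run and no p-value is given. The members and the lists were chosen with earlier results of these data known. Lists of muscle and other marker genes had been planned and were not used, since tags were not matched to genes here. Tags named individually were the 10 highest ratios, the 5 highest means at 35 dpc, the 3 largest differences between the breeds in each direction, the 3 highest levels at 49 dpc in each breed, after birth and in the 2 libraries outside the rule, the 3 tags on each side of the limit, and overlapping pairs. Other tags given by name (Tags 102, 127, 132 and 157, those with a polyadenylation hexamer and those with an abundant neighbour) were chosen after their values were seen. Reference tags had at least the lowest member level in both libraries of 35 dpc and include the members.

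Library totals of 2157111 to 5322022 made 1 copy worth 0.188 to 0.464 TPM. Intervals are 95% Wilson intervals. Alternatives were pseudocounts of 0.1 and 5, other choices of libraries, TMM scaling, merging of tags 1 base apart, a minimum of 50 copies, lists of 100 and 400 tags and other thresholds. The code that chooses the members was tested on simulated data with planted tags. Python 3.11.15, numpy 2.4.6, pandas 2.3.3, scipy 1.17.1, matplotlib 3.10.9, R 4.3.3 and edgeR 4.0.16 (scaling factors only) were used.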

Additional observations from a re-analysis of the deposited data

Results flagged for a closer look

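In the 2 LR libraries that the choice of members did not use, 3 members exceeded 3 copies, the amount taken as detectable. Tag 72 had 6 copies in LR at 120 dpn and 5 copies in LR at 180 dpn. Tag 175 had 5 copies and Tag 174 had 4 copies in LR at 120 dpn. These values stand for 1.17 to 1.75 TPM, and their source was not tested.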

How the results depend on the processing

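No replicate of any breed and stage exists, so every value describes single libraries, and no test was run, paired by stage or unpaired, because the levels chose the members. Recomputed counts were held to 1.5 times the value given, and medians to the counting error of a single tag at the median level. Of 125 values recomputed under alternatives, 91 stayed within these limits, most of them later-stage medians of 0, which the rule favours. Another 33 moved further and 1 changed direction. The last was the median difference between the breeds at 35 dpc (log2, LT over LR), which was -1.09 over the tags chosen by LR at 35 dpc alone, 2.33 by LT alone and 1.89 by the mean of both, in alternatives added after seeing the data. With at least 50 copies required in each 35 dpc library, also added, this median was 0.377. Of the 200 tags 94 remained members with a pseudocount of 0.1, 133 with 5, 120 with the mean of both 35 dpc libraries, 105 with LR and 95 with LT at 35 dpc alone, and 65 with at least 50 copies required, a minimum that 135 members do not meet. Between 191 and 200 remained with the other 4 alternatives. The median in LT at 35 dpc was 14.2 TPM with TMM scaling and 30.1 and 13.2 TPM with 100 and 400 members. TMM moved the log2 ratio of LT to LR at 35 dpc by -0.087. In another added alternative it gave 90 and 17 members at least 2-fold higher in LT and LR, against 5.20% and 7.13% of the reference tags. A 4-fold limit gave 32 in LT and 4 in LR, and a 1.5-fold limit 30 in LR, with no reference shares given at these limits. At 35 dpc 486 tags reached a ratio of 3, 21 a ratio of 10, 3396 a ratio of 5 with a pseudocount of 0.1 and 20 with 5. With 0.1 the other stages gave 295 (49 dpc), 370 (63 dpc), 514 (77 dpc), 413 (91 dpc), 609 (2 dpn), 144 (28 dpn) and 368 (90 dpn). A ratio of 3 gave 1 (63 dpc), 16 (2 dpn), 4 (28 dpn) and 1 (90 dpn), and a ratio of 10 or a pseudocount of 5 gave 0 at 2 and 28 dpn. The cause of these shifts was not tested.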
